A study of Mus musculus with 6 samples.

Results

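mmu-miR-103-3p and mmu-miR-107-3p (miR-103-3p and miR-107-3p from here on), a pair of near-identical miRNAs linked to insulin sensitivity, were taken by name from a table of mature mouse miRNAs, as 2 of its 1976 rows. The table holds small RNA libraries of extracellular vesicles, the membrane particles that cells shed, collected from primary hepatocytes of wild-type C57BL/6J mice. Control cells received palmitic acid at 0 µM (3 libraries) and treated cells received 600 µM (3 libraries, called PA). Palmitic acid is a saturated fatty acid that loads cultured hepatocytes with lipid, and the title of the series concerns fatty liver and the vascular endothelium. No label ties the libraries of a group to separate mice or cultures, so p-values measure no more than how these libraries vary, and that variation may be technical. The cells are a culture model, the labels name the vesicles exosomes, and no label gives the time of treatment.

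A mature miRNA guides a silencing complex to messenger RNAs that pair with its seed, bases 2 to 8 from its 5′ end. miR-103 and miR-107 share their seed and are treated as 1 targeting family. They are known from mouse liver and fat, where raising them impairs insulin sensitivity and silencing them improves it, with caveolin-1, an organiser of insulin receptor signalling at the membrane, as a described target. Vertebrate genomes carry them inside genes for pantothenate kinases, the enzymes that open coenzyme A synthesis.

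The mature sequences are shown because they decide how far reads of the pair can be separated (RefSeq, GRCm38.p6, 5′ to 3′, seed in capitals).
miR-103-3p: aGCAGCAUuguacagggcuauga
miR-107-3p: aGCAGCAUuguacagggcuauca
Both have 23 bases and differ at 1 of them, G22C, counted from 1 at the 5′ end with the base of miR-103-3p first. A read that ends before position 22 could come from either miRNA, and how such reads were assigned is not given in the sources used here. Of the 1677 table rows with a mature sequence in the reference, these 2 alone carried the seed GCAGCAU.

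There are 3 loci that encode the pair, and their hairpins show why miR-103-3p cannot be traced to 1 gene (RefSeq, GRCm38.p6, 3p arm in capitals).
Mir103-1: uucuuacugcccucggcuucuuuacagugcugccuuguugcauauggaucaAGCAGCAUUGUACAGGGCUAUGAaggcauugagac
Mir103-2: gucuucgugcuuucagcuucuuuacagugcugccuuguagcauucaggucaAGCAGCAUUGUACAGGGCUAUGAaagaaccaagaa
Mir107: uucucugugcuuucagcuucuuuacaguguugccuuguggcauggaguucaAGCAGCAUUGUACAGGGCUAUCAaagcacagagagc
Mir103-1 lies at chr11:35782396-35782481 on the plus strand, in an intron of Pank3. Mir103-2 lies at chr2:131288052-131288137 on the plus strand, in an intron of Pank2. Mir107 lies at chr19:34820687-34820773 on the minus strand, in an intron of Pank1. Each hairpin has the orientation of its host gene. The Mir103-1 and Mir103-2 hairpins give the same 3p sequence, so the miR-103-3p row sums both.

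The deposited values are log2(adjusted count + 1), and whole reads were recovered from them by inverting the adjustment. Libraries held 95258 to 657703 recovered reads in controls and 613543 to 799072 with PA. Reads of miR-122 came mostly from miR-122-5p, its dominant guide in hepatocytes. Those of miR-122b came mostly from miR-122b-3p, with 12132, 88572 and 34894 reads in controls 1 to 3. All miR-122 and miR-122b rows together took 69.2% to 87.7% of control reads and 11.7% to 15.3% of PA reads. That left 29345 to 80749 control reads for all other miRNAs, against 534355 to 676761 with PA. The hepatocyte markers miR-122-5p, miR-192-5p, miR-194-5p and miR-148a-3p had reads in all 6 libraries. They summed to 63.7% to 82.5% of control reads and 30.3% to 46.2% of PA reads, the largest share of the marker lists. The 4 did not move together. On the deposited log2 scale miR-122-5p was lower with PA (-3.56, limma adjusted p = 0.0141) and miR-192-5p was higher (1.94, limma adjusted p = 0.0259). Neither miR-194-5p (-0.23) nor miR-148a-3p (0.83) passed the test. The endothelial miR-126a-3p and the stellate and fibroblast markers miR-143-3p and miR-199a-3p also had reads in all 6. Other members of these lists did not. The endothelial miR-126a-5p had 0 reads in control replicate 1. The stellate and fibroblast markers miR-145a-5p (8, 3 and 7 reads with PA) and miR-214-3p (0, 2 and 0) had none in controls. Endothelial markers summed to 0.0865% to 0.342% and 0.374% to 0.496%, and stellate and fibroblast markers to 0.0157% to 0.215% and 0.0463% to 0.0599%. Immune markers stayed at or below 0.00735%. Erythroid markers (miR-451a, miR-144-3p, miR-486a-5p) summed to 0.0038% to 0.57% of control reads and 0.00244% to 0.016% of PA reads, with miR-144-3p at 0 reads throughout. Striated muscle markers summed to 0.00958% to 0.236% and 0.00263% to 0.00501%, with miR-133a-3p at 0 reads throughout. All of these muscle reads were of miR-206-3p, except 4 of miR-1a-3p in control replicate 1. The part of these markers in the results below was not tested.

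miR-103-3p was well detected in every PA library and was close to the detection limit in 2 of 3 control libraries. Control replicates 1 to 3 had deposited log2 values of 5.84, 2.76 and 1.76, and PA replicates 1 to 3 had 8.81, 8.32 and 8.05. These stand for 18, 2 and 1 reads in controls and for 917, 913 and 444 reads with PA. Every PA library lay above every control library, with a gap of 2.21 on the log2 scale between the nearest of them. Control replicate 1 stood well above the other controls, and the control values ranged over 4.08 against 0.764 with PA. As RPM (reads for every 1000000 recovered) counted outside miR-122, the controls held 613, 24.8 and 19 and the PA libraries 1355, 1358 and 831. The 95% exact binomial interval of control replicate 1 on that scale, 364 to 969, overlapped that of PA replicate 3, 755 to 912, and those of the other controls overlapped no PA interval. By read number miR-103-3p ranked 90, 177 and 200 among the 238, 243 and 242 miRNAs detected in the control libraries. With PA it ranked 36, 43 and 49 among 610, 640 and 484.

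On the deposited scale miR-107-3p lay below miR-103-3p in every library except control replicate 2. Here control replicates 1 to 3 had deposited log2 values of 4.54, 3.25 and 0.27, and PA replicates 1 to 3 had 7.23, 6.99 and 6.85. The reads behind them were 7, 3 and 0 in controls and 306, 360 and 193 with PA. The groups did not overlap, the nearest control and PA libraries being 2.31 apart, and control replicate 1 was again the highest control. The value of 0.27 in control replicate 3 is what the adjustment gives to 0 reads. At that depth the 95% exact binomial interval of 0 reads reaches 14.6 RPM. As RPM outside miR-122 the controls held 239, 37.2 and 0 and the PA libraries 452, 535 and 361. Control replicate 1 had a 95% interval of 95.9 to 491 there, which overlapped the intervals of all 3 PA libraries (403 to 506, 482 to 594 and 312 to 416), and those of the other controls overlapped none. With PA the miRNA ranked 72, 72 and 70 by read number, a position that moved little between the libraries.

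**Figure D1:**
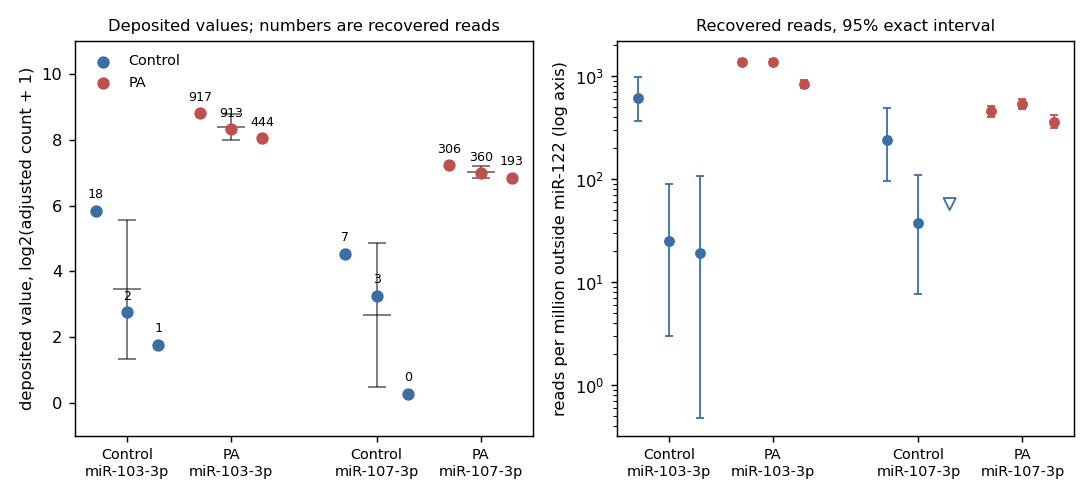
Left, deposited log2(adjusted count + 1) of miR-103-3p and miR-107-3p in each library (blue control, red PA, replicates 1 to 3 from left to right), with recovered reads as numbers and the group mean and SD as bars. Right, RPM outside miR-122 on a log axis with 95% exact binomial intervals. The open triangle stands for 0 reads of miR-107-3p in control replicate 3. It is drawn at 57, the RPM that 3 reads would give, and the exact interval there reaches 70.1. PA libraries sit above control libraries for both miRNAs, and controls rest on 18 reads or fewer.

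Both miRNAs rose with PA. On the deposited scale miR-103-3p averaged 3.45 ± 2.13 in controls and 8.39 ± 0.39 with PA (SD, n = 3 each). Its difference was 4.94 (SE 1.09, 95% interval 2.42 to 7.46, limma adjusted p = 0.00518), or 30.7-fold on the log2(adjusted count + 1) scale. miR-107-3p averaged 2.69 ± 2.19 and 7.02 ± 0.19 (SD, n = 3 each). Its difference was 4.34 (SE 1.18, 95% interval 1.61 to 7.06, limma adjusted p = 0.0136), or 20.2-fold. Both were higher in 3 of 3 PA libraries. These folds are anchored on 21 control reads of miR-103-3p and 10 of miR-107-3p in all, against 2274 and 859 reads with PA.

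A rise was common among the tested miRNAs, so the 2 calls are to be read against that background. Of 181 tested miRNAs 76 rose, which is 42%, and 26 fell, which is 14.4%. Groups did not overlap for 123 of them, or 68%. The median tested miRNA differed by 1.94, and the middle of the distribution ran from -0.89 to 3.92 between its quartiles. miR-103-3p stood 3.0 and miR-107-3p 2.4 above that median, at ranks 21 and 36 by size of change. Scaling shifts this level: the median was 1.15 once libraries were centred on their own medians, 1.18 with totals outside miR-122 and 2.99 with library totals. The split of higher and lower calls moved with it, to 65 and 40, 57 and 41, and 89 and 8. Under these scalings the members stayed above the median, by 2.90 to 3.01 for miR-103-3p and by 2.4 to 3.23 for miR-107-3p. With a library left out the distance varied more, from 2.41 (without control replicate 3) to 4.78 (without control replicate 1) for miR-103-3p and from 1.45 to 3.90 for miR-107-3p under the same omissions. A miRNA was tested if 3 or more libraries had an adjusted count of 10 or more, and both members got there through PA libraries. Only control replicate 1 reached 10 for either. The filter shifts the median change as well. It was 0.20 with no filter and 0.09 over miRNAs with an adjusted count of 10 or more in all 6 libraries. Of the latter, 29 were higher and 22 lower, so a common rise was not seen there.

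**Figure D2:**
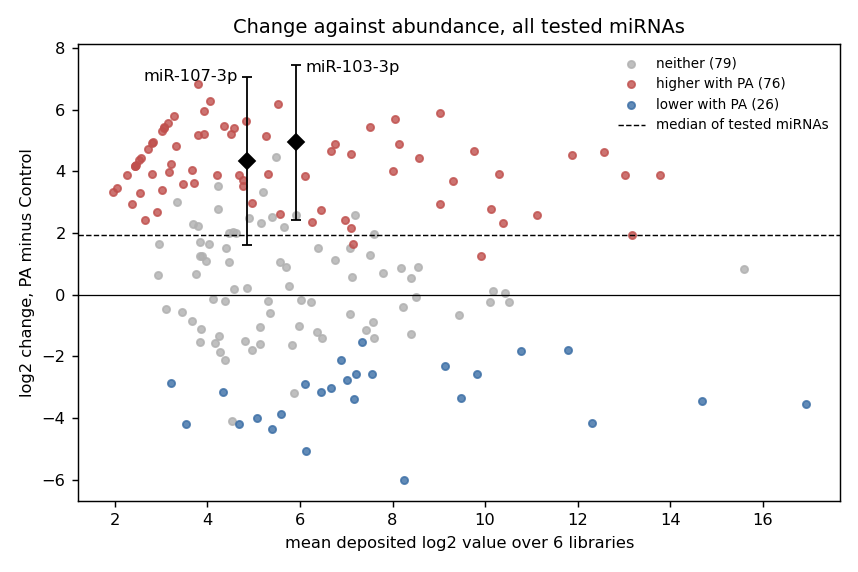
Log2 change (PA minus control) against mean deposited log2 value for 181 tested miRNAs, coloured by call (limma adjusted p below 0.05), with the median change as a dashed line. miR-103-3p (4.94) and miR-107-3p (4.34) are black diamonds with 95% intervals and sit above the median of 1.94, among other miRNAs that rose.

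The call of miR-103-3p was kept in all 17 alternatives that gave it a value, with a log2 change of 4.08 to 6.13 and an adjusted p of 4.5e-05 to 0.0432. The call of miR-107-3p was lost in 4 of 17. Its limma adjusted p was 0.0546 without PA replicate 1, 0.0526 without PA replicate 3, 0.0715 with no filter and 0.1 with totals outside miR-122, over a whole range of 0.0041 to 0.1. Control replicates set the size of the fold. Without control replicate 1 the rise was 70.3-fold for miR-103-3p and 38.4-fold for miR-107-3p. Without control replicate 3 it was 17.1-fold and 8.75-fold.

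**Figure D3:**
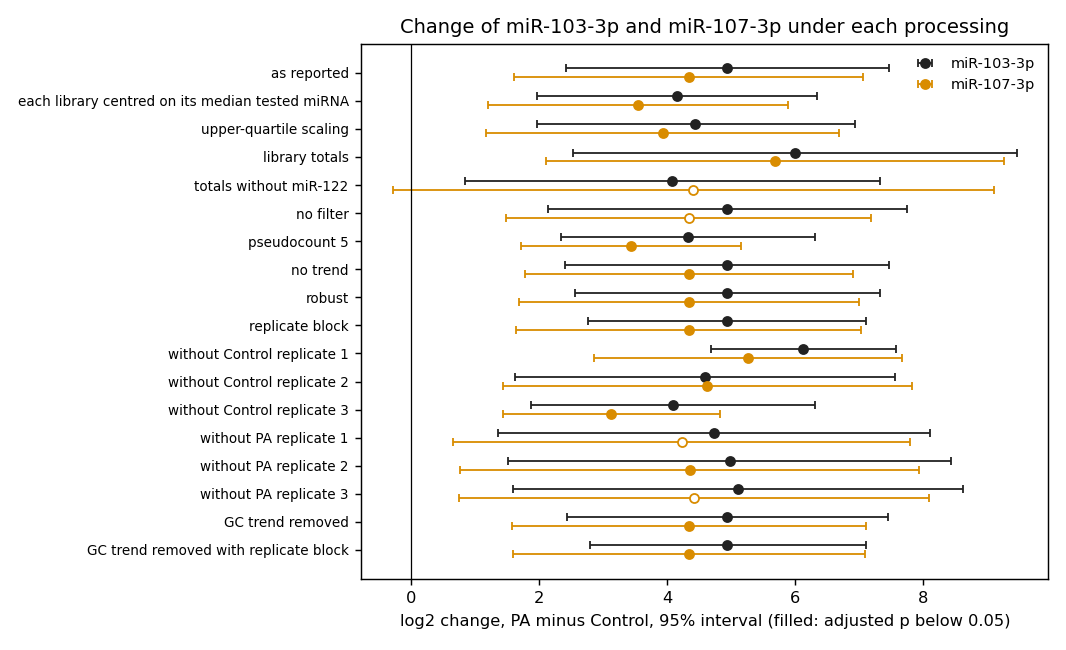
Log2 change of miR-103-3p (black) and miR-107-3p (orange) with 95% intervals under the reported fit and each alternative, filled where the adjusted p is below 0.05. Every value is above 0, the 4 open symbols belong to miR-107-3p, and the 1 interval that crosses 0 is that of miR-107-3p with totals outside miR-122.

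Since reads of the pair may have been assigned to either name, their sum was followed as well. Together they held 262, 7.6 and 3.96 RPM in control replicates 1 to 3. With PA they held 1531, 1671 and 1038 RPM. The log2 difference was 6.12 (69.5-fold), higher in 3 of 3 PA libraries, with an exact two-sided permutation p = 0.1, the smallest that 3 against 3 libraries allow. The share of 1 miRNA in all reads also depends on how much miR-122 takes. As RPM outside miR-122 the sum was 852, 61.9 and 19 in controls and 1807, 1893 and 1192 with PA. The difference then was 4.0 (16-fold, exact permutation p = 0.1), so it was smaller than over all reads and had the same direction. The 95% exact binomial interval of control replicate 1, 551 to 1257, overlapped that of PA replicate 3, 1101 to 1288, whereas those of control replicates 2 (20.1 to 144) and 3 (0.481 to 106) overlapped none of the PA intervals. These intervals cover counting error only, since PCR copies are not independent molecules. Fewer vesicles that carry the pair and less of it per vesicle cannot be told apart in such libraries.

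The control reads can also be set beside the number that the mean PA share would give at the same depth outside miR-122. For miR-103-3p that number was 34.7, 95.4 and 62.1 reads in controls 1 to 3, where 18, 2 and 1 were recovered. For miR-107-3p it was 13.2, 36.3 and 23.6, where 7, 3 and 0 were recovered. Control replicate 1 thus held a little over 50% of that number for each miRNA (ratios 0.519 and 0.531) and the others at most 0.0826 of it. The spread between controls was wider than usual: the SD of 2.13 for miR-103-3p and 2.19 for miR-107-3p compare with a median of 1.07 over tested miRNAs, at ranks 35 and 32 of 181. As RPM outside miR-122, control replicate 1 was the highest control for 92 of 181 tested miRNAs (50.8%). On the deposited scale it was the highest for 68 (37.6%), so this place is not particular to the pair. Control replicate 1 was the shallowest library, and it held the largest erythroid share (0.57%, against 0.0038% and 0.0218% in the other controls). The neuronal marker miR-9-5p had 256 reads there, against 0 and 92. Their part in the high control value was not tested.

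miR-103-3p outnumbered miR-107-3p in each PA library. It made up 75% of the pair's reads in PA replicate 1 (917 of 1223, 95% Clopper-Pearson interval 72.5 to 77.4), 71.7% in replicate 2 (913 of 1273, 69.2 to 74.2) and 69.7% in replicate 3 (444 of 637, 66 to 73.3). The PA mean was 72.1% ± 2.66 (SD, n = 3), between 2.3 and 3 reads of miR-103-3p for each read of miR-107-3p. In controls the share was 72% in replicate 1 (18 of 25, 50.6 to 87.9), 40% in replicate 2 (2 of 5, 5.27 to 85.3) and 1 of 1 read in replicate 3. Summed over libraries it was 67.7% (21 of 31, 48.6 to 83.3) in controls and 72.6% (2274 of 3133, 71 to 74.1) with PA.

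The ratio of the pair was compared between groups as well. In control replicates 1 to 3 the log2 ratio, the difference of the deposited log2 values, was 1.30, -0.49 and 1.49. With PA it was 1.58, 1.33 and 1.2. Its difference was 0.60 with an exact two-sided permutation p = 0.6, and the groups overlapped. It fell to -0.03 without control replicate 2, which holds 5 reads of the pair. With so few control reads the value added before taking logs matters, and scaling can turn the order of the changes: with totals outside miR-122 miR-107-3p differed by 4.41 and miR-103-3p by 4.08. A difference in the split was not detectable at this depth, where the summed control share has an interval of 48.6% to 83.3%.

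**Figure D4:**
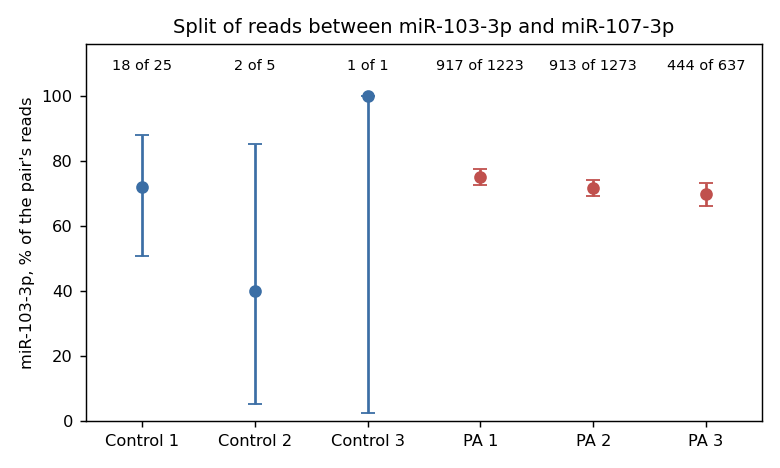
Share of miR-103-3p in the reads of both miRNAs for each library, with 95% Clopper-Pearson intervals and the read numbers above. PA libraries lie between 69.7% and 75% with narrow intervals, and control intervals are wider, from 50.6 to 87.9 in replicate 1 to 2.5 to 100 in replicate 3, on 25, 5 and 1 reads.

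The 3p arms carried nearly all reads of these hairpins. Over 6 libraries the 3p rows held 3164 reads and the 5p rows 3. miR-103-1-5p had 1 read and miR-107-5p had 2, all in PA replicate 1, and miR-103-2-5p had none. The 5p arms would tell the loci apart, since those of Mir103-1 and Mir103-2 differ at 1 of 23 bases, but 3 reads give no estimate of how much each contributed.

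The miR-15 and miR-16 family, known for restraining the cell cycle, begins with almost the same bases moved by 1 position. The first 7 bases of miR-103-3p, AGCAGCA, are the seed of that family, and 3 of its members are shown for this reason (run in capitals).
miR-16-5p: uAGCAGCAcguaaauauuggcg
miR-15a-5p: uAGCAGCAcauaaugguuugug
miR-322-5p: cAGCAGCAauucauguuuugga
Of 12 table rows with that run within bases 1 to 9, 9 had reads, and miR-16-5p was the only one tested besides miR-103-3p and miR-107-3p. Control replicates 1 to 3 held 32, 18 and 3 of its reads, and PA libraries 400, 759 and 387. miR-16-5p rose by 2.76 (SE 0.96, limma adjusted p = 0.0386). It missed the threshold in 8 of 17 alternatives. The adjusted p was 0.0511 without control replicate 2, and 0.0867, 0.126 and 0.121 without PA replicate 1, 2 and 3. In each control library miR-16-5p had more reads than miR-103-3p, and with PA it had fewer.

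The members' rise was set beside that of miR-16-5p within each library. miR-103-3p minus miR-16-5p was -0.81, -2.89 and -1.19 on the log2 scale in controls 1 to 3, against 1.19, 0.27 and 0.20 with PA. Its difference of 2.18 was the same way in 3 of 3 PA libraries, with an exact permutation p = 0.1, the smallest possible. It was 1.55 without control replicate 2 and at most 2.59 with another library left out. miR-107-3p minus miR-16-5p was -2.12, -2.40 and -2.68 in controls and -0.38, -1.07 and -1.0 with PA, a difference of 1.58 (exact permutation p = 0.1). The groups did not overlap in either comparison, and the design cannot pass a threshold of 0.05 on a single value. Other guides of the family were seen almost only with PA, such as miR-15a-5p with 68, 144 and 13 reads and none in controls. By contrast miR-195a-5p had 5 reads in control replicate 1 and 1 in PA replicate 1. Controls held 29345 to 80749 reads outside miR-122, against 534355 to 676761 with PA. Absence from controls thus says little for guides with few PA reads. Of the 8 guides listed as this family, miR-497b does not carry the run.

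Calls among other miRNAs linked to insulin signalling went both ways. Of 25 listed, 20 were tested, of which 9 rose, 2 fell and 9 were not past the threshold. These counts lie near the background of 42% higher and 14.4% lower over all tested miRNAs. The median change of the list was 2.46 against 1.94 over all tested miRNAs. The counts depend on scale, with 11 higher and 0 lower on library totals and 7 higher and 6 lower on totals outside miR-122. miR-29c-3p, of a family raised in diabetic tissues, rose by 6.29 (SE 0.80, adjusted p = 3.1e-04) from 1 control read, and miR-29a-3p by 3.69 (SE 0.82, adjusted p = 0.00542; limma for these and the following). Without the filter (adjusted p = 0.071) or with totals outside miR-122 (0.0734) miR-29a-3p did not pass. miR-96-5p, which targets insulin receptor substrate transcripts, and miR-34a-5p were absent from control reads, and a miRNA without control reads could pass the filter only by being higher with PA.

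Among the let-7 miRNAs of this list, which act on the insulin receptor pathway through shared targets, calls also went both ways. let-7i-5p (3.92, SE 0.60), let-7f-5p (3.88, SE 0.47) and let-7g-5p (2.60, SE 0.46) rose, and let-7b-5p fell by 2.58 (SE 0.40, adjusted p = 9.0e-04), a fall not past the threshold on library totals (-1.61, adjusted p = 0.0742). let-7a-5p stood at -0.23 and let-7d-5p at 1.28, neither past the threshold as reported. let-7a-5p passed as lower in 3 of 18 alternatives (adjusted p = 0.0168 with totals outside miR-122) and let-7d-5p as higher in 2 of 18. miR-21a-5p rose by 3.89 and miR-26a-5p, a regulator of hepatic insulin sensitivity, by 2.33 (not past the threshold with totals outside miR-122, adjusted p = 0.098). Outside the list, let-7j was higher (4.64, limma adjusted p = 5.1e-05), let-7c-5p was lower (-1.84, limma adjusted p = 0.00985) and let-7e-5p (-0.22) did not pass. let-7 members differ by few bases, so their single values are uncertain.

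The remaining tested miRNAs of the list lay lower than the pair. miR-320-3p fell by 1.52 (SE 0.54, adjusted p = 0.0419), a call lost in 7 of 16 alternatives. Its adjusted p was 0.0581 and 0.0939 without control replicate 1 and 3, and 0.14, 0.0899 and 0.0544 without PA replicate 1, 2 and 3. miR-143-3p, which impairs insulin-stimulated AKT activation in liver, stood at -0.89 (adjusted p = 0.192). miR-29b-3p (3.32), miR-221-3p (2.60), miR-222-3p (1.13), miR-24-3p (0.87), miR-30d-5p (0.12) and miR-126a-3p (0.07) did not pass either as reported. Several of these passed under other settings. miR-221-3p was higher in 8 of 17 alternatives, with an adjusted p of 0.00638 with the replicate block and 0.0166 without control replicate 1, and miR-29b-3p was higher in 3 of 17. miR-143-3p was lower with centring (adjusted p = 0.022), upper-quartile scaling (0.0439) and totals outside miR-122 (0.0329). With totals outside miR-122 miR-30d-5p (-1.02, adjusted p = 0.03) and miR-126a-3p (-1.08, adjusted p = 0.0425) were also lower. With the GC trend removed miR-24-3p (adjusted p = 0.0134) and miR-222-3p (0.0447) were higher. By fitted change miR-29c-3p, miR-96-5p and miR-34a-5p stood above miR-103-3p and miR-107-3p in this list, and all 3 had at most 1 control read. Differences between the pair and these miRNAs were not tested.

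**Figure D5:**
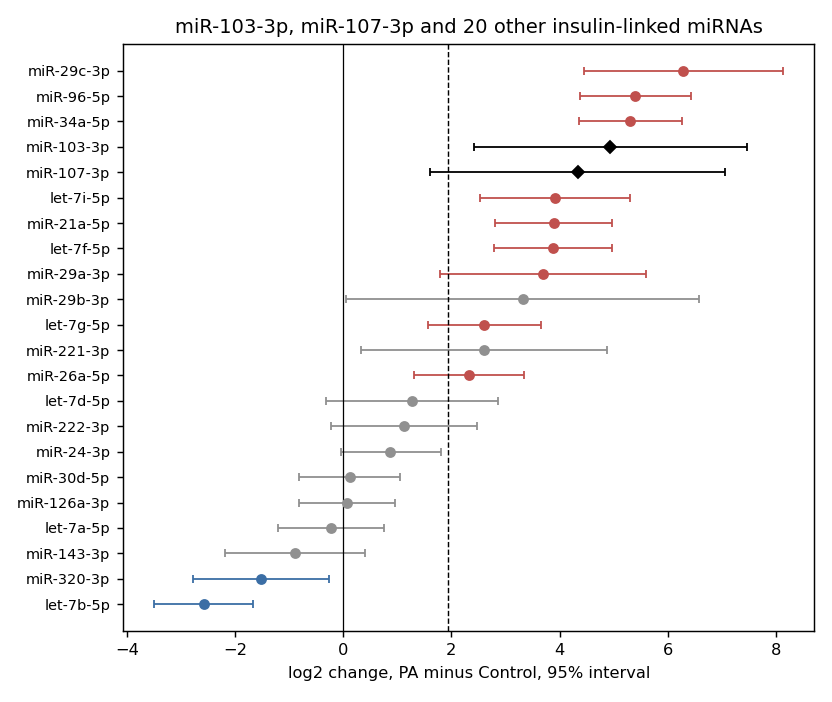
Log2 change (PA minus control) with 95% intervals for miR-103-3p and miR-107-3p (black diamonds) and 20 other tested insulin-linked miRNAs (red rose, blue fell, grey neither), with the median of all tested miRNAs dashed. The pair sits in the upper part with wide intervals, and the list runs from let-7b-5p at -2.58 to miR-29c-3p at 6.29.

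The miRNAs with the most similar profiles were found by the root mean square difference of log2 values over the 6 libraries, after each profile's own mean was removed. Nearest to miR-103-3p were miR-31-5p (0.47), miR-379-5p (0.68), miR-29a-3p (0.69), miR-107-3p (0.71) and miR-7a-5p (0.74). Nearest to miR-107-3p were miR-130a-3p (0.62), let-7i-5p (0.62), miR-29b-3p (0.68), miR-103-3p (0.71) and miR-330-5p (0.74). The pair was thus near each other, in place 4 of each order, and neither was the nearest of the other. miR-31-5p and miR-379-5p each had 2 reads in control replicate 1 and 0 in the other controls, so their likeness in controls rests on few reads. All of these profiles come from the same 6 libraries and share their depths.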

How the data were processed

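Small RNA libraries (NEBNext Multiplex small RNA kit, Trizol extraction, per the labels' protocols) were analysed from 6 samples, grouped by their titles. The submitters' processing notes name Bowtie2, bedtools, GRCm38 and mm10. The sources used here do not give the miRNA annotation or how reads were counted. Although the table is named as raw counts, its deposited values are log2(adjusted count + 1), as the values themselves show. They match counts moved to 1 shared library size through negative binomial quantiles (fitted dispersion 1.387), a step no label states. Inverting it made 98.6% of 4387 tested values whole reads with a log2 tolerance of 0.0015. Tested values had a log2 step of 0.02 or more for 1 read. Part of this is built in, since the adjustment and some row means were fitted to make reads whole. PA reads of the members, where steps are finer, are uncertain by about 1 read. On simulated data of 1058 rows, 99.9% of reads were recovered within 0.2%. The simulation used the same adjustment, so it cannot show that the submitters used it. Whether other libraries entered that step is unknown.

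A group term was fitted by limma 3.58.1 under R 4.3.3, with the prior variance following mean level, on deposited values of 181 miRNAs (adjusted count 10 or more in 3 or more libraries), with two-sided tests and Benjamini-Hochberg adjustment over all 181 at 0.05. On data simulated for this comparison (181 miRNAs, 90 changed) it recovered 26.7%, 86.7% and 100% of log2 changes of 1, 2 and 4. There 5.88% of calls were unchanged miRNAs. Every simulated miRNA was drawn with the same dispersion in both groups. The pair had SDs of 2.13 and 2.19 in controls against 0.39 and 0.19 with PA, so these rates need not hold for it. Ratios and sums were compared by exact permutation (scipy 1.17.1). Sums used recovered RPM, with and without miR-122 and miR-122b in the total. Host genes came from GENCODE M21 on GRCm38 and sequences from RefSeq. Named miRNAs were the pair, all rows of its hairpins, tested members of the miR-15/16 and insulin-linked lists, for each member the 5 nearest profiles, and the 2 tested miRNAs just above and just below it in mean level. Members and lists were chosen with earlier results of these data known. Alternatives covered scaling, filter, pseudocount, variance model, base composition, replicate block and each library left out.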

Additional observations from a re-analysis of the deposited data

How the results depend on the processing

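The direction of both members held in all alternatives run. miR-107-3p was not past the threshold with totals outside miR-122 (4.41, adjusted p = 0.1), with no filter (4.34, 0.0715), and without PA replicate 1 (4.23) or 3 (4.42). Leaving out each library in turn gave 4.09 to 6.13 for miR-103-3p and 3.13 to 5.26 for miR-107-3p, and -0.03 to 0.96 for their log2 ratio. The sum of both ran from 4.95 to 7.98 in RPM and from 2.80 to 5.54 outside miR-122. An adjusted count of 10 in all 6 libraries removed both members and left 29 higher miRNAs against 76, and 22 lower against 26. Lower miRNAs numbered 26 as reported, 40 with centring, 8 with library totals, 41 with totals outside miR-122 and 60 with no filter, and with a library left out 63 to 85 were higher and 20 to 32 lower. No label says that replicate numbers pair the libraries, so they were not taken as pairs. Same-numbered libraries deviated together with r = 0.21, 0.15 and 0.04, and differently numbered ones with r from -0.18 to 0.06. Control replicate 3 was nearer to PA replicate 2 (0.06) than to its own number. No reference value for unpaired libraries was computed, so these r values cannot decide whether the numbers are pairs. With the replicate block the members stood at 4.94 (adjusted p = 5.4e-04) and 4.34 (0.00751), with 83 higher and 28 lower. Sign-flip tests on 3 pairs cannot go below 0.25. The GC trend used 161 miRNAs (89%) with a sequence.

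Of the other named miRNAs, these changed sign, all from values that had not passed. miR-126a-3p (0.07) was -0.72 with centring, -0.48 with upper-quartile scaling, -1.08 with totals outside miR-122, -0.25 to 0.29 with a library left out and -0.16 with the GC trend removed, without or with the replicate block. miR-30d-5p (0.12) was -0.67, -0.42 and -1.02 under the same scalings, -0.17 without control replicate 1, -0.06 without PA replicate 3 and at most 0.38 with another library left out. miR-203b-5p (0.22) was -0.57, -0.27 and -0.75 under them, -0.03 with a pseudocount of 5, -1.27 to 1.31 with a library left out and -0.54 with the GC trend removed. Library totals turned let-7a-5p to 0.74, miR-126b-5p to 0.79 and miR-143-3p to 0.08. Totals outside miR-122 turned miR-24-3p to -0.27 and miR-222-3p to -1.0e-03. The cause was not tested. Planned count-model tests of recovered reads were not run. That was a choice made because the deposited unit is log2, although recovered reads were used for the sums and the library totals. Control depth outside miR-122 limits every control value given.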

Other observations

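Of the miRNAs nearest to the pair in mean level, 1 rose and the others did not pass the test, and their difference from the pair was not tested. Next above miR-103-3p in mean deposited log2 value were miR-361-3p (6.47 in controls, 5.46 with PA, change -1.01) and miR-126b-5p (6.10 and 5.93, -0.18). Next below were miR-340-5p (4.62 and 7.22, 2.60) and the erythroid miR-451a (7.47 and 4.27, -3.20). None of these 4 passed the limma test (adjusted p = 0.227, 0.827, 0.121 and 0.0764). Around miR-107-3p stood miR-361-5p (2.49) and miR-203b-5p (0.22) above, and miR-98-5p (5.62, SE 1.0, limma adjusted p = 0.00182) and miR-199b-3p (-1.50) below. Of these, miR-98-5p, a let-7 relative, rose, and the others did not pass as reported. miR-451a passed as lower in 6 of 17 alternatives, miR-340-5p as higher in 2 of 17 and miR-361-5p as higher in 1 of 17. miR-199b-3p passed as lower in 2 of 18 and miR-361-3p in 1 of 18.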
